A study of Homo sapiens with 12 samples.

Results

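CT45A1, CT45A5, CSAG1, CSAG2, CSAG3 and CTAG2 are cancer-testis antigen genes of the X chromosome, and they were chosen by symbol in a gene table of A375 cells, an established human melanoma line. Of the 6 symbols, 5 had a row among the 4918 genes of the table and CSAG2 had none. The set had been proposed because CT45A1 was higher in cells given both agents than in those given IFNγ only, and CT45A5 higher with SB-3CT than in the controls, so both SB-3CT comparisons are described for these genes without a test, and CT45A1 and CT45A5 are described without one throughout, since each of their IFNγ comparisons contains samples that chose them. RNA was sequenced from 12 samples in 4 groups of 3, all collected after 24 h. The control cells carry the label "none" for treatment, while the labels' protocol text also names a vehicle. The other groups received SB-3CT, an inhibitor of the gelatinases MMP2 and MMP9, or IFNγ, a cytokine that raises antigen presentation, or SB-3CT together with IFNγ. All 12 samples come from the same line, no label places the 3 samples of a group in separate cultures, and p-values therefore measure the spread between samples, which may be technical.

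Cancer-testis antigens are proteins made in male germ cells and in many tumours, and hardly at all in other adult tissues. In somatic cells their promoters are commonly silenced by DNA methylation, and melanoma is among the tumours known for expressing them. Peptides from some of these proteins, NY-ESO-1 (encoded by CTAG1A and CTAG1B) above all, are shown on HLA molecules and recognised by T cells. The CT45A genes form a cluster of near-identical copies, CSAG2 and CSAG3 are copies of each other, and CTAG2 (LAGE-1) is a close relative of CTAG1A and CTAG1B.

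The promoters are shown because the families consist of copies, which the table reports as separate rows. The sequences are RefSeq promoter windows of the GRCh38.p14 assembly, from 250 bases before to 50 after the start of the gene, written 5′ to 3′ on the strand of the gene, with each CpG, the dinucleotide that DNA methylation acts on, in capitals. Of the 6 genes, 3 had an entry (CT45A1, CSAG1 and CSAG3), and CT45A5, CSAG2 and CTAG2 had none. CT45A7 is added because it was the most abundant CT45A row. The windows lie at chrX:135713389-135713688 (plus strand) for CT45A1, chrX:135837030-135837329 (minus) for CT45A7, chrX:152733672-152733971 (minus) for CSAG1 and chrX:152753671-152753970 (plus) for CSAG3.
CT45A1: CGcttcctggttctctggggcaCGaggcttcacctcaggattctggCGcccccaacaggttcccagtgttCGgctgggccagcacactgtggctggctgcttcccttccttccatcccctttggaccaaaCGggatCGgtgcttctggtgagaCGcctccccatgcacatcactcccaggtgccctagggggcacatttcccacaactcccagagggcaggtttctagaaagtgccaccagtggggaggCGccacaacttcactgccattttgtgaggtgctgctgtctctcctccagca
CT45A7: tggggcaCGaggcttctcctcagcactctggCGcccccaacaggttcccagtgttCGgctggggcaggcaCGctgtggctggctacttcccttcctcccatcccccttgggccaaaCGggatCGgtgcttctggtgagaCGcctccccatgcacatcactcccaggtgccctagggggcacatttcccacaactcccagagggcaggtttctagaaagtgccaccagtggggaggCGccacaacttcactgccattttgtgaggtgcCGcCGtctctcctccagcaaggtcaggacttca
CSAG1: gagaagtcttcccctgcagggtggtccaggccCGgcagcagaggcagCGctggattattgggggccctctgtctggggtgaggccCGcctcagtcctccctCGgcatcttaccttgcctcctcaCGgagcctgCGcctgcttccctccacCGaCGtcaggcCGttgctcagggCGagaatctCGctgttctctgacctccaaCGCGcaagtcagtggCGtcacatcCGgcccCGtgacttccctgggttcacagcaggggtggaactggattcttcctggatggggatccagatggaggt
CSAG3: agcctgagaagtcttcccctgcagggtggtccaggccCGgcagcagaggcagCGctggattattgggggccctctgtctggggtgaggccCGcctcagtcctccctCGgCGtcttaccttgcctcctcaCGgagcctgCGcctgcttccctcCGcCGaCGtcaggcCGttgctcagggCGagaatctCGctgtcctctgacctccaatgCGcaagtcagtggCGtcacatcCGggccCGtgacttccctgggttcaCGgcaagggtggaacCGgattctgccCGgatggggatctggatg

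The CT45A1 window held 8 CpG and that of CT45A7 held 10. The CSAG windows were richer, with 16 CpG for CSAG1 and 20 for CSAG3. Among 35116 RefSeq promoters of the same length the median was 14 CpG, and at least as many as in the named window were found in 60.7% of promoters for CT45A1, 56.4% for CT45A7, 47.5% for CSAG1 and 41.2% for CSAG3. The motif searched was CG, which reads the same on both strands. CT45A1 and CT45A7 had the same base at 96.1% of 285 aligned positions, and CSAG1 and CSAG3 at 95.9% of 295. No methylation was measured, and the CpG counts describe sequence only.

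**Figure D1:**
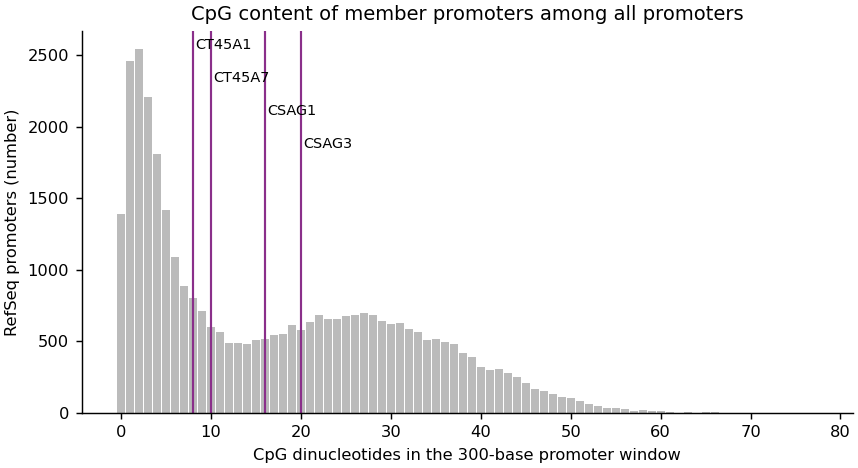
Number of CpG dinucleotides per 300-base promoter window (horizontal axis) against the number of RefSeq promoters with that count (vertical axis, grey bars); lines mark 4 genes. The lines stand at 8 for CT45A1, 10 for CT45A7, 16 for CSAG1 and 20 for CSAG3, on both sides of the median of 14.

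On GRCh37 (hg19), the build the authors aligned to, GENCODE release 44 places CT45A1 at chrX:134847185-134857354 on the plus strand and CSAG1 at chrX:151903228-151909518 on the plus strand. CSAG3 lies at chrX:151876743-151883038 on the minus strand, CSAG2 at chrX:151922445-151928738 on the plus strand, and CTAG2 at chrX:153880246-153881853 on the minus strand. CT45A5 had no entry in that release. The release types CSAG2 and CSAG3 as antisense genes and the other 3 as protein-coding. No member overlapped a gene outside its own family in the annotation, but copies limit what a row can mean. Of the 150-base windows (the read length) in the annotated CT45A1 transcripts, 75.4% also occurred, letter for letter, in transcripts of other genes on the chromosome. The share was 80.5% for CT45A7 and 100% for CT45A3 and CT45A4. CSAG3 and CSAG2 shared 100% of their windows with each other, so reads of the absent CSAG2 cannot be told apart from those of CSAG3. CSAG1 shared 0%, and CTAG2 shared 1.61%. CSAG1 and CTAG2 are thus the rows with mostly their own sequence, while the split of reads within CT45A, and between CSAG2 and CSAG3, was made by the authors' software and is uncertain.

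Levels are in FPKM, the sequenced fragments of a gene divided by its transcript length and by the mapped fragments of the sample, so that they can be compared between genes. Tests used the deposited log2(FPKM + 1) scale with limma, and a gene was called at a Benjamini-Hochberg adjusted p under 0.05 over all 4918 genes. Relative depth ranged from 87.1% to 149.9% of the mean of the controls. Of 7 melanoma and melanocyte markers, 3 had a mean of at least 1 FPKM (CD63, CSPG4 and EDNRB), while the pigment gene DCT was at 0.15 FPKM. The fibroblast, keratinocyte and lymphocyte markers in the table, 4, 3 and 3 genes, were all under 1, and their sums over the 12 samples did not exceed 0.646, 1.63 and 0.340 FPKM. Of the 2 germ cell markers in the table, CATSPER1 was at a mean of 4.15 FPKM and CATSPER3 at 0.09.

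CSAG1 was the most abundant of the 5 genes in every group. It is a gene of the CSAG family whose product has been placed at centrosomes. The controls had 71.8, 73.5 and 74.0 FPKM and the SB-3CT samples 83.0, 83.5 and 73.5. The IFNγ samples had 73.2, 78.9 and 83.1 FPKM, and those given both agents 94.2, 91.7 and 98.0. The 3 samples with both agents were above all 9 others, and the ranges of the other neighbouring groups overlapped. The group means, in the order of the levels, were 94.6 ± 3.17, 80.0 ± 5.61 (SB-3CT), 78.4 ± 4.94 (IFNγ) and 73.1 ± 1.18 (control) FPKM (SD, n = 3 each).

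CSAG3 stayed within a narrow range. The controls had 20.2, 21.1 and 21.6 FPKM, the SB-3CT samples 21.2, 23.4 and 20.6, the IFNγ samples 17.7, 17.5 and 19.4, and those given both agents 21.1, 21.3 and 24.1. All 3 IFNγ samples lay below the 9 others. Means were 22.2 ± 1.69 with both agents, 21.8 ± 1.49 with SB-3CT, 21.0 ± 0.696 in the controls and 18.2 ± 1.06 FPKM with IFNγ (SD, n = 3 each), and the first 3 groups overlapped.

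CT45A1 encodes a CT45 protein, a nuclear protein of germ cells and tumours. The controls had 30.0, 47.9 and 43.2 FPKM, and SB-3CT samples 48.3, 51.2 and 50.6. IFNγ samples had 32.4, 44.9 and 21.7 FPKM, against 57.4, 63.2 and 62.2 where SB-3CT was added to IFNγ. Samples with SB-3CT were close together (50.0 ± 1.49 FPKM alone and 60.9 ± 3.07 with IFNγ, SD, n = 3 each), whereas samples without it were scattered (40.4 ± 9.27 in the controls and 33.0 ± 11.6 with IFNγ). Neighbouring groups in this order did not overlap, except the controls and IFNγ. The gap between SB-3CT and the controls was small, since the lowest sample with SB-3CT was at 48.3 FPKM and the highest control at 47.9.

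CT45A5, another copy, was low, and each sample lay either near the controls or above all of them. The controls read 2.69, 3.04 and 2.72 FPKM and the SB-3CT samples 8.73, 9.07 and 8.93. IFNγ samples read 6.68, 6.54 and 2.73, and those given both agents 2.30, 9.32 and 8.39. The third IFNγ sample and the first sample with both agents were thus at the level of the controls, and the 2 other samples of each of these groups were above every control. The first and second IFNγ samples were still below every SB-3CT sample. The means were 2.82 ± 0.197, 8.91 ± 0.173, 5.32 ± 2.24 and 6.67 ± 3.81 FPKM (SD, n = 3 each, in the same order), and only the controls and SB-3CT stand apart by more than the spread within both groups.

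CTAG2 was near the floor of the table. The controls were listed at 0.461, 0 and 0.464 FPKM, SB-3CT samples at 0.151, 0.193 and 0.542, IFNγ samples at 0.620, 0.533 and 0.704, and those given both agents at 0.604, 0.659 and 0.267. The IFNγ samples were above the 3 controls, by less than 1 FPKM. Its relative CTAG1A was far more abundant, at group means of 119, 101, 105 and 115 FPKM (control, SB-3CT, IFNγ, both), and CTAG1B had group means between 3.44 and 4.57 FPKM. Since CTAG1A and CTAG1B shared at least 99.0% of their windows, only their sum is firm.

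**Figure D2:**
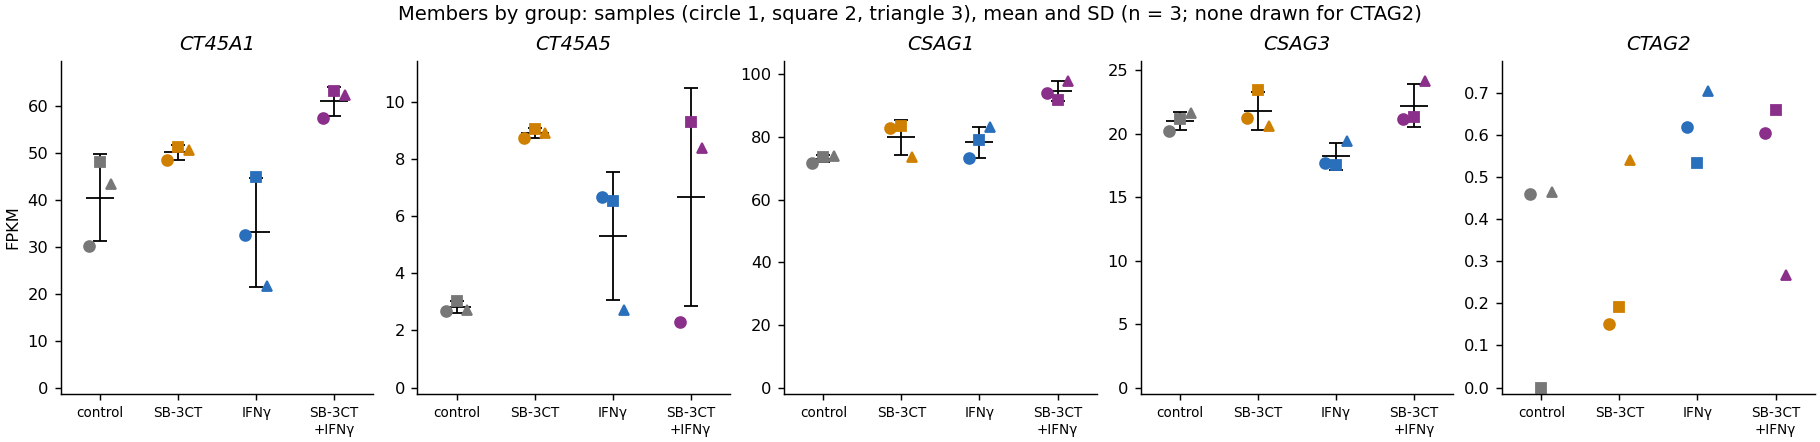
FPKM (vertical axis, from 0, a separate scale per panel) of the 5 genes in the 12 samples of 4 groups; symbols are samples 1 to 3, and bars give the mean and SD of 3 samples except for CTAG2. CT45A5 lies between 8.73 and 9.07 in the SB-3CT samples and between 2.69 and 3.04 in the controls, and CSAG1 is highest in the 3 samples with both agents.

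In the SB-3CT comparisons, which chose the set, CT45A5 stood highest. Its mean FPKM with SB-3CT was 3.16 times that of the controls, a difference of 1.38 on the log2(FPKM + 1) scale. CT45A1 was 1.24 times the control mean (0.33 on the log2 scale, and 0.13 without the first control), and the groups did not overlap for either gene. Over the whole table, 33.9% of genes did not overlap between these groups, and 14.2% of all genes were higher without overlap with SB-3CT. CSAG1, CSAG3 and CTAG2 differed by 0.13, 0.05 and -0.01 and their groups overlapped.

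In the presence of IFNγ, CT45A1 with SB-3CT was 1.85 times the level with IFNγ alone (0.92 on the log2 scale). CSAG1 and CSAG3 each differed by 0.27, and these 3 genes did not overlap between the groups, against 49% of all genes in either direction and 9.35% upward. CT45A5 differed by 0.19 and CTAG2 by -0.11, with overlapping groups, and CT45A5 has no direction here, since the value was -0.16 without the third IFNγ sample, -0.11 without the second sample with both agents, -0.04 without the third and 0.71 without the first. The whole table was shifted here. Among genes with a mean of at least 1 FPKM the median difference was -0.20, and -0.21 for SB-3CT with IFNγ against SB-3CT, while it was within 0.05 of 0 in both other comparisons. With scaling by the median ratio of the samples, CSAG1 and CSAG3 each differed by 0.52 from IFNγ alone and CT45A1 by 1.17.

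The question left for testing was whether IFNγ changed CSAG1, CSAG3 and CTAG2, without and with SB-3CT. Both IFNγ comparisons use groups that also entered the SB-3CT comparisons, but they share no sample with each other. Without SB-3CT, 0 of the 5 genes passed the threshold of limma, where 19.5% of all genes did (8.46% as higher and 11% as lower), and 1 gene (CSAG3) had an unadjusted p under 0.05. CSAG3 differed by -0.20 (SE 0.055, adjusted p = 0.0556, limma), lower in 3 of 3 samples than in every control, as were 22% of all genes (36.9% did not overlap in either direction, 15% upward). Without the third IFNγ sample the difference was -0.24 (adjusted p = 0.0491). Among genes of at least 1 FPKM alone its adjusted p was 0.0488, and over all alternatives it ranged from 0.0488 to 0.163. CSAG1 differed by 0.10 (SE 0.053, adjusted p = 0.267) and CTAG2 by 0.33 (SE 0.153, adjusted p = 0.198). Of the 2 genes without a test, CT45A1 differed by -0.32, and by -0.05 without the third IFNγ sample, -0.51 without the first control, -0.56 without the second IFNγ sample and -0.18 without the second control. CT45A5 differed by 0.65, and by 1.00 without the third IFNγ sample.

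With SB-3CT present, 2 of the 5 genes passed the threshold upward, CSAG1 and CT45A1, but the samples with both agents had chosen CT45A1, so that its count is no evidence. In this comparison 40.5% of all genes were called, 32.7% as lower and 7.85% as higher. CSAG1 rose by 0.24 (SE 0.059, adjusted p = 0.0206), from 80.0 to 94.6 FPKM, without overlap between the groups (51.7% of all genes, and 9.84% upward). Its adjusted p was 0.0558 without the first sample with both agents and 0.0719 without the third, and ranged from 0.00287 to 0.0719 over all alternatives. With scaling by the median ratio, which moves the centre of this shifted table to 0.01, it rose by 0.50. The samples with both agents also set the difference of CSAG1 from IFNγ alone (0.27), so that difference is not independent of this one. CSAG3 differed by 0.03 (SE 0.071, adjusted p = 0.806), and by 0.28 after that scaling (adjusted p = 0.0583), and CTAG2 by 0.22 (SE 0.148, adjusted p = 0.287). As descriptions, CT45A1 differed by 0.28, from 50.0 to 60.9 FPKM without overlap, and by 0.54 after the scaling. CT45A5 differed by -0.54, which rests on the first sample with both agents, since the difference was -0.01 without it.

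**Figure D3:**
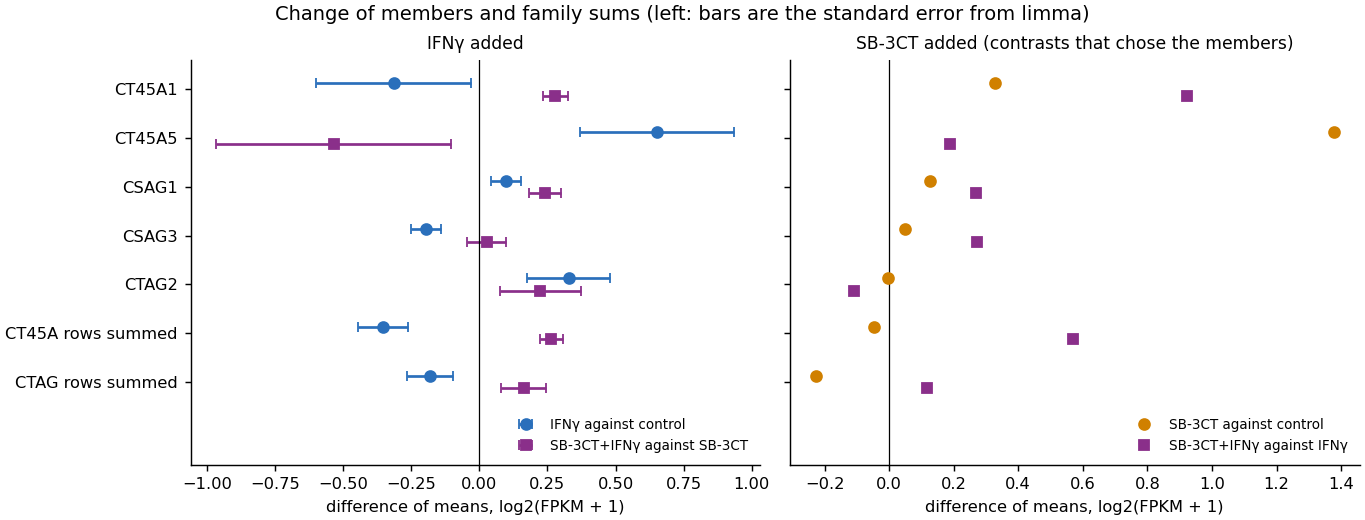
Differences of group means on the log2(FPKM + 1) scale (horizontal axis) for the 5 genes and for the summed CT45A and CTAG rows, with IFNγ added (left, bars are standard errors from limma, with a test for the CSAG genes, CTAG2 and the CTAG sum alone) and with SB-3CT added (right, no test, different horizontal scale). On the left, the CT45A sum stands at -0.35 without SB-3CT and 0.26 with it, and on the right CT45A5 stands at 1.38 against control and CT45A1 at 0.92 against IFNγ.

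Because reads of the CT45A copies cannot be assigned with certainty, the family was also summed. In the GRCh37 annotation CT45A4 (chrX:134928331-134953994), CT45A7 (chrX:134945946-134953994) and CT45A10 (chrX:134947435-134953875) overlap on the minus strand. Their rows may thus split the reads of the same stretch. CT45A2 also overlaps CT45A8, and CT45A6 overlaps CT45A9. Of 10 CT45A rows, 7 had reads and 3 (CT45A2, CT45A8 and CT45A9) were listed at or next to 0. CT45A7 was the most abundant row, the controls having 151, 129 and 126 FPKM and SB-3CT samples 101, 112 and 102. IFNγ samples had 73.4, 90.6 and 124 FPKM, and those given both agents 135, 123 and 136. Its level in the SB-3CT samples was below every control, the opposite of CT45A1 and CT45A5. CT45A4 had group means of 12.7, 18.4, 13.1 and 20.3 FPKM (control, SB-3CT, IFNγ, both) and CT45A10 of 29.3, 28.7, 25.3 and 37.0. CT45A3 and CT45A6 had group means between 3.80 and 6.30 FPKM.

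The CT45A rows summed to 235, 234 and 223 FPKM in the controls, and to 221, 230 and 217 in SB-3CT samples. The groups overlapped, at means of 230.5 ± 6.37 and 222.8 ± 6.85 (SD, n = 3 each), a difference of -0.05 on the log2 scale. The higher CT45A5 and CT45A1 rows with SB-3CT were thus not matched by a higher sum. CT45A5 made up 1.15% to 1.30% of the sum in the controls and 3.94% to 4.12% with SB-3CT, while CT45A7 made up 55.4% to 64.2% and 45.9% to 48.8%. How far this is a shift between genes or between assigned reads was not tested.

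With IFNγ alone the sum was 156, 197 and 191 FPKM, below every control (mean 181.0 ± 22.2, SD, n = 3), and with both agents it was 259, 269 and 275, above every other sample (267.9 ± 8.19). The sum contains CT45A1 and CT45A5, which were chosen on these groups, and its differences are descriptions. With IFNγ it differed from the controls by -0.35 on the log2 scale (-0.30 with scaling by the median ratio), and in the presence of SB-3CT by 0.26 (0.53 with that scaling). The 5 other CT45A rows with reads, summed, had means of 187 FPKM in the controls, 164 with SB-3CT, 143 with IFNγ and 200.2 with both agents. Their differences with IFNγ were -0.40 and 0.29, again without overlap, but their level with both agents overlapped the controls. These rows share sequence with the chosen ones. Over the whole table, 22% of genes were lower without overlap with IFNγ, and 9.84% were higher without overlap with IFNγ in the presence of SB-3CT. The sum with both agents differed from that with IFNγ alone by 0.57, the comparison that chose CT45A1. The CTAG rows summed to 124, 106, 110 and 119 FPKM (control, SB-3CT, IFNγ, both) and were not called with IFNγ, at -0.18 (adjusted p = 0.202) without SB-3CT and 0.16 (adjusted p = 0.176) with it.

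**Figure D4:**
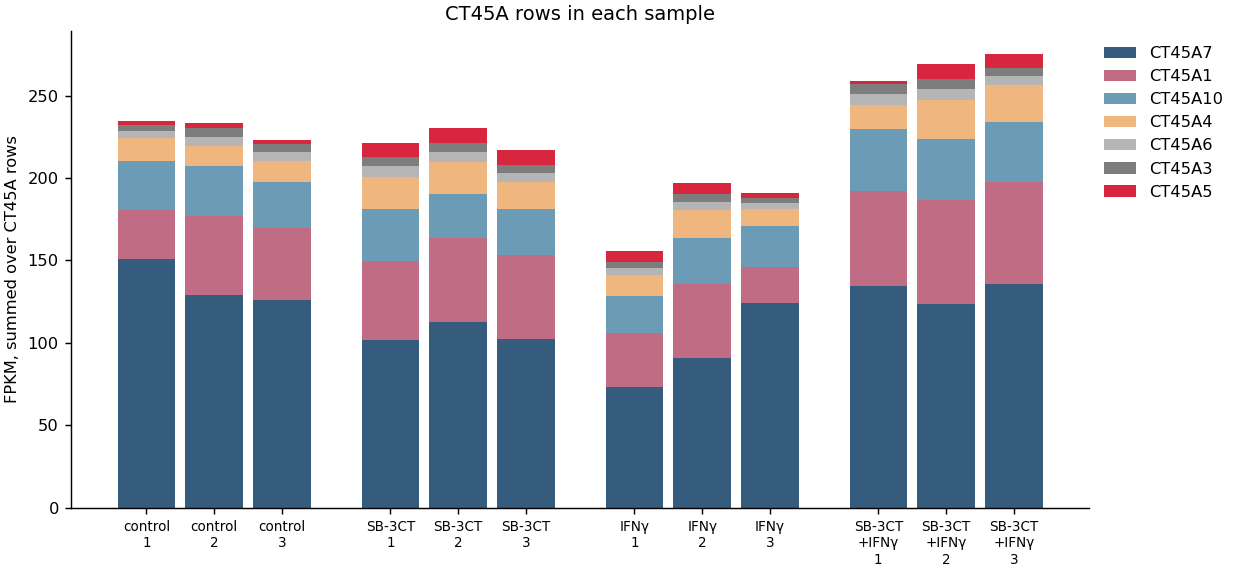
FPKM of the 7 CT45A rows with reads (vertical axis, stacked from 0) in each of the 12 samples (horizontal axis, by group). The stacks reach 217 to 235 in the controls and SB-3CT samples, 156 to 197 with IFNγ and 259 to 275 with both agents, and the CT45A5 segment is thin in the controls, in the third IFNγ sample and in the first sample with both.

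Rows of the family also differed within groups. In deviations from the group means over the 12 samples, CT45A5 followed CT45A4 (Pearson r = 0.84), CT45A1 followed CT45A3 (r = 0.83), and CT45A1 and CT45A7 ran opposite ways (r = -0.65). The third IFNγ sample showed the last of these, with the lowest CT45A1 (21.7 FPKM) and the highest CT45A7 (124 FPKM) of its group. These rows share sequence and libraries, and the values are descriptions. Over the groups as well, the genes whose log2 levels were most like CT45A1 among 3173 genes of at least 1 FPKM were C17orf89 (r = 0.94), CT45A3 (r = 0.91) and C4orf48 (r = 0.91). For CT45A5 they were CT45A4 (r = 0.78), CAMK2N1 (r = 0.74) and ABHD16B (r = 0.72). For CSAG1 they were AP2S1 (r = 0.91), ABRACL (r = 0.89) and CKS1B (r = 0.89), and for CSAG3 FAM103A1 (r = 0.88), C11orf98 (r = 0.86) and APOO (r = 0.86).

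Other cancer-testis genes showed no common direction as a list. How far each listed gene is confined to germ cells and tumours was not checked. Of 70 genes on that list, which was written by hand, 37 had a row and 20 a mean of at least 1 FPKM. CT45A7, the most abundant CT45A row, was not on it, and its level with SB-3CT was below every control. Cancer-testis genes with symbols after FAM46B were not analysed. The list's median change was -0.02 with IFNγ, -0.01 with IFNγ in the presence of SB-3CT, -0.03 with SB-3CT and -0.01 with SB-3CT in the presence of IFNγ, beside -0.02, -0.11, -0.01 and -0.09 for all genes. CT83 (KK-LC-1), a cancer-testis antigen gene elsewhere on the X chromosome, was called in both IFNγ comparisons. It rose by 0.80 without SB-3CT (SE 0.109, adjusted p = 0.00459) and by 1.22 with it (SE 0.077, adjusted p = 0.000241). ATAD2, a bromodomain ATPase of chromatin, was the only other list gene called with IFNγ alone, at 0.43 (adjusted p = 0.0222). Of all genes, 19.5% were called there (8.46% higher, 11% lower). With IFNγ in the presence of SB-3CT, 3 were called as higher, CT83, CSAG4 (0.33) and CT45A10 (0.35), a copy of CT45A1 measured in the samples that chose it, and 1 fell, DCAF12 (-0.37), a ubiquitin ligase subunit that was at -0.12 and not called (adjusted p = 0.0614) with scaling by the median ratio. In this comparison 40.5% of all genes were called as deposited, 7.85% as higher and 32.7% as lower.

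With SB-3CT against control, 1 list gene was called as higher, CT45A4 (0.50), and 1 fell, ANKRD45 (-0.20, adjusted p = 0.0408), where 12.2% of all genes were called (5.37% higher, 6.87% lower). CT45A4 shares its sequence with the other copies and followed CT45A5, which was chosen on this comparison, so it is no independent evidence. Neither gene was called without any 1 control, and CT45A4 was not called with all 4 groups in one fit. With SB-3CT and IFNγ against IFNγ, 5 rose and 7 fell, where 37.9% of all genes were called (6.41% higher, 31.5% lower). Those that rose were CT83 (0.58), CT45A10 (0.53), CT45A6 (0.44), CT45A3 (0.43) and CSAG4 (0.34). The CT45A rows among them share sequence with CT45A1, which was chosen on this comparison, and are no independent evidence. The largest falls were BAGE3 (-1.04), ATAD2 (-1.0) and CASC5 (-0.83), which encodes the kinetochore protein KNL1. With scaling by the median ratio the list had 9 higher and 4 lower, and BAGE3 was no longer called (-0.96, adjusted p = 0.10). Of all 4918 genes, 811 were called as higher and 760 as lower after that scaling. The SB-3CT difference itself depended on IFNγ for 4 of the 37 list genes, where 22.3% of all genes were called (4.74% higher, 17.6% lower), upward for CT45A10 (0.56), again a copy of CT45A1 and no independent evidence, and downward for CASC5, ATAD2 and CEP55. CT83 missed the threshold (0.42, adjusted p = 0.0506).

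**Figure D5:**
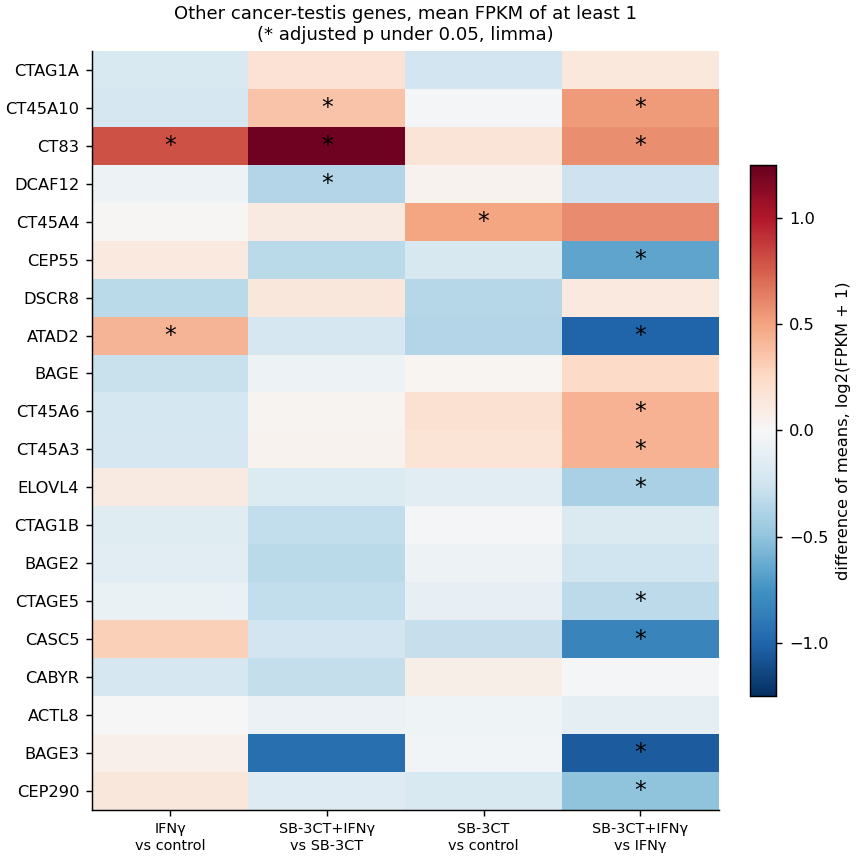
Differences of group means on the log2(FPKM + 1) scale (colour) for the 20 listed other cancer-testis genes with a mean of at least 1 FPKM (rows, by falling level). Columns are 4 comparisons, and CT45A7 was not on the list. Asterisks mark an adjusted p under 0.05 by limma, and those on CT45A rows are no independent evidence. CT83 is marked in 3 columns, and marks of both directions stand in the column of SB-3CT+IFNγ against IFNγ, with ATAD2 at -1.0 and CT45A10 at 0.53.

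Genes of DNA methylation and repressive chromatin, the machinery known to silence cancer-testis genes, were read beside the members (30 of 32 had a row). The genes used end at FAM46B, so those of this machinery with later symbols were not read. With IFNγ, 3 rose, led by BAZ2A (0.69) and BCOR (0.55), and 3 fell, CHD3 (-0.33), CBX6 (-0.32) and CBX3 (-0.27), 6 of 30 where 19.5% of all genes were called. With SB-3CT, 2 rose, CTBP1 (0.22) among them, and 2 fell, CBX3 (-0.48) and BMI1 (-0.33), a Polycomb protein, 4 of 30 where 12.2% of all genes were called. With SB-3CT and IFNγ against IFNγ, 19 fell and 0 rose, led by CBX5 (-0.63), ATRX (-0.62) and BAZ2A (-0.62), and with scaling by the median ratio 10 fell and 2 rose. Of all genes, 31.5% were called as lower in this comparison as deposited. After scaling, 760 of all 4918 genes were called as lower and 811 as higher. Against SB-3CT, 17 fell and 0 rose, led by CBX6 (-0.71), CHD3 (-0.66) and CHD4 (-0.62), and 6 fell and 2 rose after that scaling. There 32.7% of all genes were called as lower as deposited, and 504 as lower and 675 as higher after scaling. The list's median was -0.31 and -0.30 in these comparisons as deposited, and -0.10 and -0.09 after scaling. Among all genes with a mean of at least 1 FPKM the median was -0.20 and -0.21 as deposited, and 0.02 and 0.01 after scaling. The part of these genes in the levels of the members was not tested.

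Within 1 Mb of a member on GRCh37, 23 other genes had a row, and neighbours with symbols after FAM46B were not analysed. With IFNγ 2 rose, CLIC2 (1.17) the more strongly, and 2 fell, F8A3 (-0.78) and ATP6AP1 (-0.29). With IFNγ in the presence of SB-3CT, CLIC2 rose (0.86) and 7 fell, and with scaling by the median ratio 5 rose and 0 fell. With SB-3CT, 2 rose, EMD (0.29) and BCAP31 (0.27), and 4 fell. With SB-3CT and IFNγ against IFNγ, CMC4 rose (0.32) and 5 fell, and 5 rose and 2 fell after scaling. The median of the 23 genes lay between -0.08 and -0.04 in the 4 comparisons. Rows of the CT45A, CSAG and CTAG families were not counted as neighbours. Of all genes, as deposited, 8.46% were called as higher and 11% as lower with IFNγ, and 7.85% and 32.7% with IFNγ in the presence of SB-3CT. The shares were 5.37% and 6.87% with SB-3CT, and 6.41% and 31.5% against IFNγ. After scaling, 675 of all 4918 genes were called as higher and 504 as lower with IFNγ in the presence of SB-3CT. Against IFNγ these were 811 and 760. Whether these 23 genes differ from all genes was not tested.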

How the data were processed

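RNA-seq was measured in 12 samples of A375 cells, 3 per group. The authors aligned 150-base paired reads to hg19 and made FPKM values; the labels name HISAT2 2.0.5 and StringTie 1.3.3. The deposited values fit a log2 scale, log2(FPKM + 1), and sum to between 121928 and 129692 FPKM per sample over the 4918 genes used (A1BG to FAM46B; later symbols were not analysed here). The design had assumed FPKM; since the values were already logarithms, they were tested as they stand. No columns of values were left unused. Depth is not stated, and relative depth was taken from the steps of the lowest values. The comparisons used limma (version 3.58.1, under R 4.3.3; lmFit and eBayes with trend on the 3 + 3 samples, two-sided, Benjamini-Hochberg over 4918 genes); the difference of SB-3CT changes was fitted over all 12 samples. An exact permutation test of 3 against 3 cannot go below 0.1. Fold changes on this scale understate those of low genes. The functions were tested on simulated data. The members, lists and comparisons were chosen with earlier results of these data known.

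The genes named are the members; the 3 genes most like each member of at least 1 FPKM; the 3 largest rises and falls among called genes of the cancer-testis and chromatin lists; genes within 1 Mb; and markers of at least 1 FPKM. Others were named after their values were seen, the CT45A and CTAG copies, DCT, CATSPER3, and CT45A3 and CSAG4 against IFNγ among them. Some results under this rule are not reported here. Shared windows were counted on GENCODE release 44 transcripts (GRCh37). Alternatives were a pseudocount of 0.1, median ratio and quantile scaling, a minimum of 1 FPKM, all 4 groups in one fit, a replicate block, eBayes without trend, a fold change over 1.5 with unadjusted p under 0.05, and each sample left out.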

Additional observations from a re-analysis of the deposited data

Results flagged for a closer look

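The summed CT45A level moved opposite ways with IFNγ. It was lower in all 3 IFNγ samples than in any control (-0.35 on the log2 scale) and higher in all 3 samples with SB-3CT and IFNγ than in any with SB-3CT alone (0.26). Over the whole table, 22% of genes were lower without overlap in the first comparison, and 9.84% were higher without overlap in the second. Without CT45A1 and CT45A5, which were chosen on these groups, the other rows summed differed by -0.40 and 0.29. The difference between these changes was not tested, because the groups also enter the comparisons that chose the members. Relative depth was 149.9%, 118.2% and 87.1% in the IFNγ samples and 103.8%, 140.4% and 91.4% in those with both agents, and its part in the result was not tested.

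The SB-3CT change with IFNγ differed from that without for 4 of the 37 other cancer-testis genes (limma, interaction term). Over the whole table, 22.3% of genes were called for this term (4.74% higher, 17.6% lower). The differences were 0.56 for CT45A10, -0.54 for CASC5 (adjusted p = 0.0259), -0.64 for ATAD2 (adjusted p = 0.0310) and -0.46 for CEP55 (adjusted p = 0.0419). With scaling by the median ratio, CT45A10 was at 0.77, and CASC5, ATAD2 and CEP55 were at -0.40, -0.46 and -0.26 and no longer called (adjusted p = 0.0615, 0.0835 and 0.185). CT45A10 is a copy of CT45A1, and the term contains the comparison that chose CT45A1, so its value is no independent evidence.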

How the results depend on the processing

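Among the members and the sums, no value past the threshold changed sign. Of 128 refits of the members' IFNγ changes, 117 kept their direction and their side of the threshold, and that of CSAG3 with SB-3CT present (0.03) turned sign with samples left out, from -0.033 to 0.080, without passing it. The sums kept both in 41 of 52 refits, the CT45A sum counted although untested, and 86 of 90 SB-3CT differences moved by less than the spread within groups. Among these, CTAG2 with SB-3CT (-0.01) ranged from -0.19 to 0.09 with samples left out and was 0.19 with a pseudocount of 0.1, CTAG2 with both agents against IFNγ ranged from -0.18 to 0.01, CSAG3 with SB-3CT from -0.0049 to 0.08, and CT45A5 with both agents against IFNγ from -0.16 to 0.71. The differences that moved were that of CT45A5 with SB-3CT (1.63 with a pseudocount of 0.1) and those of CSAG1 and CSAG3 given above, with CSAG3 at 0.43 after quantile normalization. The CT45A sum contains the chosen genes, so its values are descriptions. With IFNγ against control it was at -0.35 as deposited, -0.30 with median ratio scaling and -0.33 with quantile normalization, and lay between -0.42 and -0.25 with samples left out. The CTAG sum lay between -0.26 and -0.12 there, called only without the second IFNγ sample (adjusted p = 0.0472), and with SB-3CT it was called at 0.42 with median ratio scaling and 0.27 with quantile normalization. That of CT45A with SB-3CT was 0.53 with median ratio scaling. The sums with SB-3CT lay between 0.24 and 0.29 for CT45A and between 0.08 and 0.22 for CTAG with samples left out.

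Members past the threshold, CT45A1 and CT45A5 counted although untested, were 0 with IFNγ against control, but 2 with a minimum of 1 FPKM, 1 without trend and 0 to 2 with samples left out. With SB-3CT present they were 2, but 1 with all 4 groups in one fit, 0 at a fold change over 1.5, and 1 to 2 with samples left out. Other cancer-testis genes called with IFNγ were 2, but 4 with a minimum of 1 FPKM, 1 at the fold change and 1 to 6 with samples left out (6 without the second IFNγ sample). With IFNγ and SB-3CT against SB-3CT they were 4, but 7 with the minimum, 8 with all 4 groups, 2 at the fold change and 4 to 5 with samples left out. With SB-3CT they were 2, but 4 with the minimum, 1 with all 4 groups, 1 without trend, 0 at the fold change and 0 to 4 with samples left out, 0 without any 1 control. With both agents against IFNγ they were 12, but 5 at the fold change and 7 to 13 with samples left out (7 without the first IFNγ sample). For the difference of SB-3CT changes they were 4, but 2 with quantile normalization, 8 with the minimum and 1 to 8 with samples left out. Scaling by the median ratio turned the split of all called genes from 386 higher and 1608 lower to 675 and 504 with both agents against SB-3CT, from 315 and 1547 to 811 and 760 against IFNγ, and from 416 and 542 to 596 and 500 with IFNγ. The cause was not tested. The number of reads is not known, and the counting error of the low rows CTAG2 and CT45A5 could not be given.

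Replicate numbers showed no clear pairing of the samples, with correlations of same-numbered deviations from -0.395 to 0.172. Differently numbered samples were not compared, so these values cannot exclude a pairing. With the replicate number as a block, 1 member was past the threshold with SB-3CT present, CT45A1, which is untested here. CSAG1 was not called in that fit (0.24, adjusted p = 0.0713, limma). The CT45A sum with IFNγ was at -0.35 as a description, and other cancer-testis genes called with SB-3CT were 1.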
